A study of Homo sapiens with 2 samples.

Results

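The genes examined here were 2 hypoxia factors, HIF1A and EPAS1, and 8 genes known to be induced by low oxygen, CA9, VEGFA, ADM, NDRG1, BNIP3, ANKRD37, EGLN3 and DDIT4. They were taken by gene name, and all 10 were found among the 58174 genes of the deposited tables. RNA-seq compared PLC-8024 cells, a human hepatocellular carcinoma (HCC) line, carrying a control vector (PLC-8024-CTR) with PLC-8024 cells that overexpressed human GDF1, a ligand of the TGF-β superfamily (PLC-8024-GDF1). The cells were transduced with lentivirus and selected with puromycin as stable lines, and were grown in high-glucose medium with foetal bovine serum. No oxygen level is given in the sources used here. There was 1 library per condition, so no test across replicates could be made, and each difference describes these 2 libraries alone.

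HIF1A and EPAS1 (HIF-2α) encode the oxygen-regulated subunits of the hypoxia-inducible factors. In the presence of oxygen, prolyl hydroxylases of the EGLN family mark these proteins for destruction through the VHL ubiquitin ligase, so that their amount is set largely after translation and is not read from mRNA. At low oxygen they persist, pair with ARNT and bind DNA at a short element, and genes for oxygen-sparing metabolism, acid export and blood vessel growth are induced. HCC is a richly vascular tumour in which VEGFA and CA9 are much studied hypoxia markers.

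The values were TPM, a relative level that accounts for gene length and for the total of each library, so that levels of different genes can be compared. For each gene the log2 change was taken as log2(TPM + 1) in the GDF1 library minus log2(TPM + 1) in the control library, which makes the change of low genes smaller. A gene is said to have risen or fallen when this value passed 1 or -1, a 2-fold change, and only genes that reached 1 TPM in either library were counted, 14929 in all. TPM keeps no sequencing depth, and no counting error can be given. GDF1 was listed at 2.10 and 4.64 TPM in the control and GDF1 libraries, and CERS1, with which it shares exons, at 13.3 and 9612 TPM. The median log2 change of all counted genes was -0.20, and 33.4% of the genes past 2-fold rose. That share was 53.1% after rescaling to a median of 0 and 50.9% after the trend with GC content was removed. Of 11 hepatocyte markers, 5 (45.5%) fell over 2-fold in PLC-8024-GDF1, against 9.61% of all genes, with a median log2 change of -0.86. The 5 were APOA1, ALB, TTR, HNF4A and AFP. HNF4A (log2 change -1.02) and ALB (-1.18) lay close to the 2-fold line. The share of hepatocyte markers was not recomputed after rescaling or removal of the GC trend. AFP is among the liver progenitor markers of the paper, which reports by qPCR that such markers rose with GDF1 overexpression. In these libraries AFP went the other way, at 31.4 TPM in the control and 9.75 TPM in the GDF1 library (log2 change -1.59). The summed level of the 11 hepatocyte markers was 11836 and 9120 TPM in the control and GDF1 libraries. Of 11 markers of leukocytes, endothelium and stroma, 9 were under 1 TPM in both libraries, and PTPRC, VWF, COL1A2, DCN and ACTA2 were listed at 0.0001 TPM in both. The summed level of the 11 was 57 and 37 TPM. Of the other 2, CD68 was listed at 33.1 and 13.2 TPM and PECAM1 at 23.2 and 22.2 TPM. The part of these markers in the results below was not tested.

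Most of the hypoxia-induced genes fell in PLC-8024-GDF1 cells. Of the 9 genes that reached 1 TPM, 6 fell over 2-fold (CA9, VEGFA, NDRG1, ADM, ANKRD37 and BNIP3), 0 rose and 3 lay within 2-fold (DDIT4, EPAS1 and HIF1A). Among all 14929 genes, 9.61% fell over 2-fold and 4.82% rose. The 10 genes were chosen with earlier results of these data known, so these shares only describe them. The median log2 change of the 9 was -1.76, against -0.20 over all genes. With the TPM of overlapping expressed genes added, 5 of the 9 fell and the median was -1.03. EGLN3 did not reach 1 TPM and was left out of these counts. HIF1A alone had the higher value in the GDF1 library. Since a bulk library adds up many cells, fewer cells with a transcript and less of it per cell cannot be told apart.

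**Figure D1:**
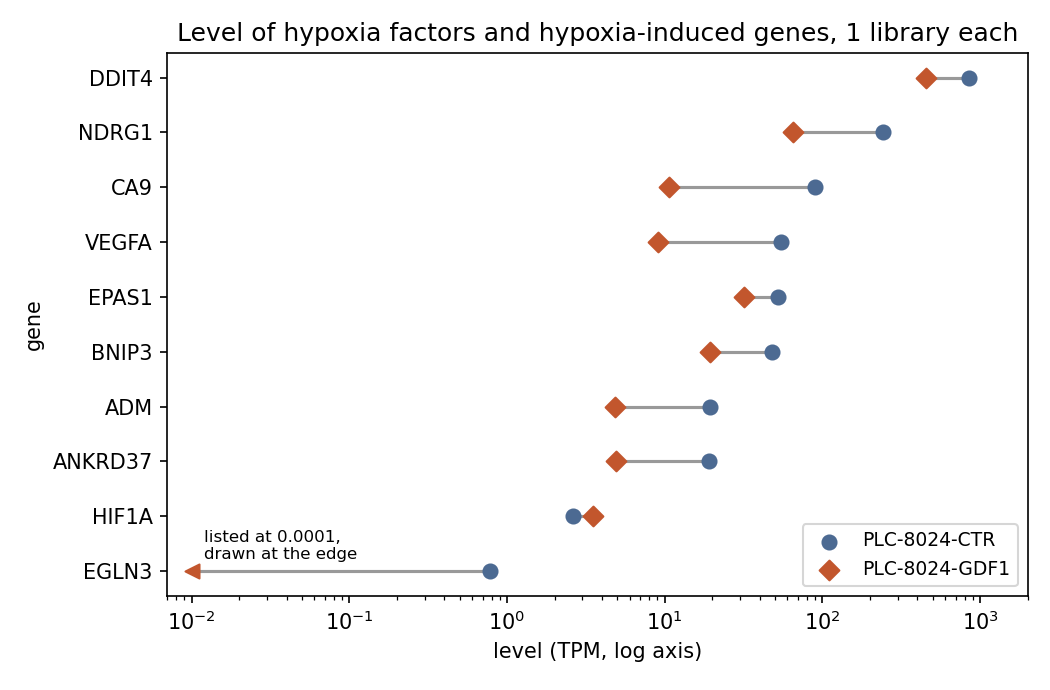
Level of each of the 10 genes in TPM on a log axis, with circles for the PLC-8024-CTR library and diamonds for the PLC-8024-GDF1 library, 1 library each and no error bars. The point of the PLC-8024-GDF1 library lies left of the circle for every gene but HIF1A. For EGLN3, listed at 0.0001 TPM in PLC-8024-GDF1, it is a left-pointing triangle drawn at the left edge in place of a diamond.

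CA9, the cell-surface carbonic anhydrase IX that helps tumour cells export acid, had the most negative change of the 9 counted genes. It was listed at 89.4 TPM in the control library and 10.7 TPM in the GDF1 library, a level 8.39-fold lower and a log2 change of -2.96. Only 40 of the 14929 genes had a more negative change. CA9 (ENSG00000107159) lies on chromosome 9 of GRCh37 from 35673925 to 35681156, and 1939 bases of it are shared with ARHGEF39 on the opposite strand. ARHGEF39 was listed at 20.5 and 19.4 TPM, and the summed TPM of the pair had a log2 change of -1.84, which is less negative than the changes of VEGFA and NDRG1. CA9 went from the third highest of the 10 genes in the control library to a place behind EPAS1 and BNIP3 in the GDF1 library. Of the other carbonic anhydrases, the cytosolic CA2 fell from 66.2 to 20.1 TPM (log2 change -1.68), and CA12, another hypoxia-induced surface enzyme, was listed at 1.65 and 0.35 TPM (log2 change -0.97).

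VEGFA and ADM encode secreted factors that act on blood vessels. VEGFA (ENSG00000112715, chromosome 6 of GRCh37, 43737921 to 43754224), the main growth factor for endothelium, was listed at 54.5 TPM in the control library and 9.02 TPM in the GDF1 library. Its level was 6.04-fold lower, with a log2 change of -2.47, and 95 of all genes had a more negative one. ADM (ENSG00000148926, chromosome 11, 10326620 to 10328944), the precursor of the vasodilator peptide adrenomedullin, was listed at 19.3 and 4.87 TPM, 3.96-fold lower with a log2 change of -1.79. The related ligands did not pass 2-fold. VEGFB was listed at 103.8 and 118.4 TPM (log2 change 0.19) and PGF at 2.28 and 3.33 TPM (log2 change 0.40), while VEGFC was at 0.0001 TPM, the value that stands for 0, in both libraries. VEGFB was thus higher than VEGFA in each library, by TPM. The VEGF receptors FLT1, KDR and FLT4 were also listed at 0.0001 TPM in both libraries, and the coreceptors NRP1 (13.1 and 11.1 TPM) and NRP2 (2.90 and 1.95 TPM) lay within 2-fold. The adrenomedullin receptor CALCRL was listed at 0.0001 and 0.012 TPM. Of the 13 listed ligands, receptors and coreceptors of the VEGF and adrenomedullin pathways besides VEGFA and ADM, 4 had at least 1 TPM. Of these 4, 0 passed 2-fold in either direction, while 9.61% of all genes fell and 4.82% rose. With only 4 genes, no difference from all genes can be read.

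NDRG1, BNIP3 and DDIT4 act inside the cell in growth control and stress. NDRG1, a differentiation-linked protein whose gene responds strongly to hypoxia, was listed at 242.9 TPM in the control library and 65.0 TPM in the GDF1 library, 3.74-fold lower with a log2 change of -1.89. The paralogs NDRG2 (29.3 and 18.0 TPM, log2 change -0.67) and NDRG3 (20.5 and 19.5 TPM, log2 change -0.07) stayed within 2-fold, and NDRG4 was under 1 TPM in both libraries. In the longest NDRG1 transcript, 16.8% of 100-base windows also occurred in 1 other annotated transcript, that of ENSG00000289316.

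BNIP3, a mitochondrial protein of the BCL2 family that promotes removal of mitochondria, was listed at 48.1 TPM in the control library and 19.4 TPM in the GDF1 library. It lies on chromosome 10 of GRCh37 (ENSG00000176171, 133781188 to 133795471). Its log2 change of -1.27 was the closest to the 2-fold line among the genes that fell, and it was -1.04 after rescaling and -1.03 when added up with AL162274.2, a noncoding RNA on the opposite strand listed at 5.46 and 6.30 TPM. Its paralog BNIP3L, with a like role in mitophagy, was listed at 11.1 and 6.02 TPM (log2 change -0.79). The pseudogene BNIP3P1, which holds copies of 4.18% of the 100-base windows of BNIP3, was at 0.94 and 0.56 TPM, and reads of such windows cannot be assigned to either gene for certain.

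DDIT4 (REDD1), an inhibitor of the growth kinase complex mTORC1, was the most abundant of the 10 genes. It was listed at 845.7 TPM in the control library and 453.2 TPM in the GDF1 library, ranks 166 and 321 among all genes. Its log2 change of -0.90 did not pass 2-fold, and 12.1% of all counted genes had a more negative change. DDIT4 is also known as a target of ATF4, the factor of the amino acid and ER stress response. ATF4 itself was listed at 821.9 and 604.9 TPM (log2 change -0.44). Of 12 counted genes of the ATF4 and mTORC1 axis, 1 (8.33%) fell over 2-fold, against 9.61% of all genes. This was TRIB3, which went from 121.2 to 57.6 TPM (log2 change -1.06). TRIB3 thus lay close to the 2-fold line, and the count for this list was not recomputed under other scalings. ASNS (231.4 and 127.2 TPM) and MTOR (28.1 and 15.0 TPM) stayed within 2-fold, and the median log2 change of the 12 was -0.50.

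ANKRD37 and EGLN3 complete the induced genes, and both values carry a limit. ANKRD37, a small ankyrin-repeat protein, was listed at 19.0 TPM in the control library and 4.90 TPM in the GDF1 library, 3.88-fold lower with a log2 change of -1.76. Its last 1092 bases on chromosome 4 of GRCh37 (186317175 to 186321782) overlap UFSP2 on the opposite strand, and the counting is not stated to use strand. UFSP2 rose from 4.78 to 11.2 TPM. Added up, the pair had 23.8 and 16.1 TPM, a log2 change of -0.54 that no longer passed 2-fold. EGLN3, the oxygen-sensing hydroxylase whose own gene is hypoxia-induced, was listed at 0.78 TPM in the control library and 0.0001 TPM in the GDF1 library. With no depth, a level this low cannot be told from 0, and no plain ratio is given. Log2 changes of EGLN3 given elsewhere rest on the 0.0001 TPM that stands for 0. Its annotated span also holds SPTSSA on the same strand, listed at 12.5 and 8.94 TPM. Within the hydroxylase family, EGLN2 had the highest TPM in both libraries (48.4 and 40.6), followed by EGLN1 (6.07 and 3.94) and EGLN3. Of 8 listed relatives of the 10 genes, 7 reached 1 TPM. Of these 7, 1 (14.3%), CA2, fell over 2-fold, against 9.61% of all genes, and so few genes show no difference.

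**Figure D2:**
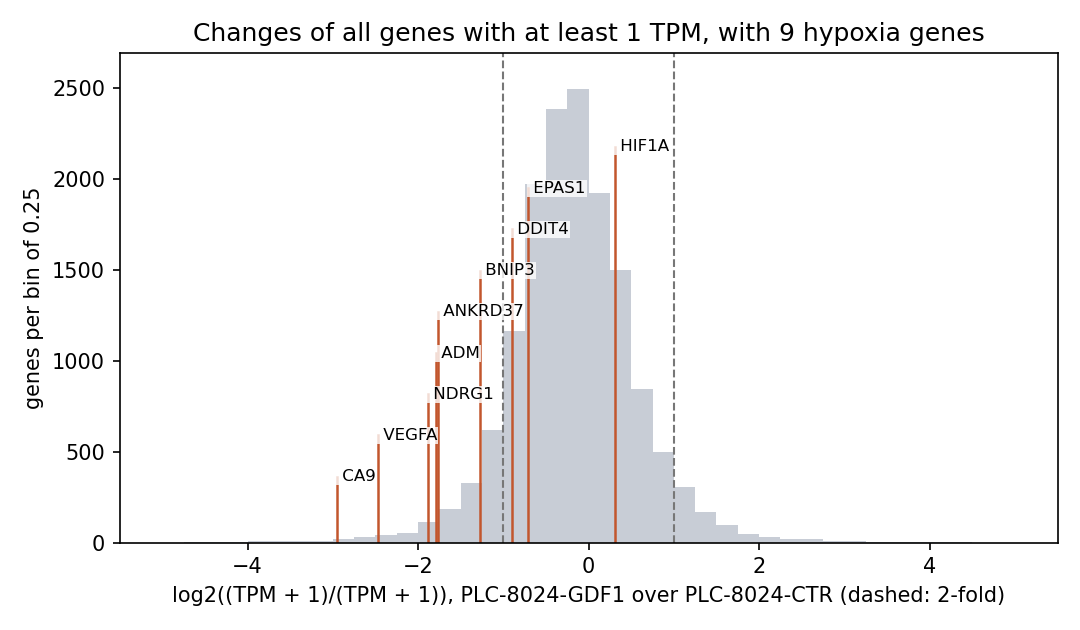
Histogram of the log2 change, GDF1 over control library, of the 14929 counted genes, in bins of 0.25 between -5 and 5 (7 genes lie outside), with vertical lines of arbitrary height for the 9 hypoxia genes counted. CA9 at -2.96 and VEGFA at -2.47 lie far in the left tail, DDIT4 and EPAS1 lie inside the dashed 2-fold line and HIF1A lies right of the centre.

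The mRNAs of the 2 factors did not pass 2-fold. HIF1A (ENSG00000100644, chromosome 14 of GRCh37, 62162231 to 62214977) was listed at 2.62 TPM in the control library and 3.50 TPM in the GDF1 library, a log2 change of 0.31. The noncoding AL137129.1, which overlaps its end on the same strand, was listed at 0.26 and 0.0001 TPM. EPAS1 (ENSG00000116016, chromosome 2, 46520806 to 46613836) was listed at 52.3 and 31.7 TPM, a log2 change of -0.71. EPAS1 thus had the higher TPM of the pair in each library. HIF1A was low, at rank 11236 of all genes in the control library and rank 9556 in the GDF1 library. The antisense RNAs HIF1A-AS1 and HIF1A-AS2 were listed at 0.0001 TPM in both libraries.

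Of 14 listed partners and regulators of the factors, 12 had at least 1 TPM, of which 1 (8.33%) fell, against 9.61% of all genes, 0 rose and 11 stayed within 2-fold. Their median log2 change was -0.32. ARNT, the partner subunit, was listed at 8.64 and 7.47 TPM (log2 change -0.19), and HIF1AN, the asparagine hydroxylase that blocks coactivator binding, at 6.78 and 5.23 TPM (log2 change -0.32). VHL, which recognises the hydroxylated factors, was listed at 5.16 and 2.83 TPM (log2 change -0.69). The coactivator EP300 was at 3.99 and 2.03 TPM (log2 change -0.72), and CITED2, a hypoxia-inducible competitor for that coactivator, at 29.6 and 15.6 TPM (log2 change -0.88). Of the elongins, adaptors of the VHL ligase, ELOC fell from 141.6 to 54.6 TPM (log2 change -1.36), and ELOB was listed at 889.6 and 1692 TPM (log2 change 0.93). The fall of ELOC did not pass 2-fold after the GC trend was removed, when 0 of the 12 fell. ELOB lay close to the upper 2-fold line, and rises in this list were not counted under other scalings.

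A wider list of 49 known HIF-induced genes, none of them among the 10, was then examined. It too was chosen with earlier results of these data known, so it is no independent check of the 10. Of these, 46 had at least 1 TPM, and 17 fell over 2-fold, 0 rose and 29 lay within 2-fold. The share that fell was 37%, against 9.61% of all genes and 45.5% of the hepatocyte markers, and the median log2 change was -0.68. The hepatocyte share was not recomputed under other scalings, so it can be set beside this first share only. The count of fallen HIF-induced genes depended on the setting. It was 12 of 46 after rescaling, beside 6.52% of all genes, and 10 of 46 after removal of the GC trend, beside 6.07%. With 0.1 TPM added in place of 1, and with the plain TPM ratio, it was 19 of 46, beside 15.5% and 16.1% of all genes. The number that rose was 1 with the plain ratio, rescaling or the GC trend removed, beside 7.88%, 7.38% and 6.29% of all genes. The same 9 genes fell under all 7 settings, among them AK4, HILPDA, LDHA, P4HA1, PGK1, SLC2A1, TFRC and WSB1.

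Among 16 counted HIF-induced genes of glucose use, which are not all genes of uptake or glycolysis, 6 (37.5%) fell over 2-fold, against 9.61% of all genes. They were LDHA, PDK1, SLC2A1, PGK1, GBE1 and SLC2A3. After rescaling 5 fell, beside 6.52% of all genes, and SLC2A3 did not. After removal of the GC trend 4 fell, beside 6.07% of all genes, and SLC2A3 and GBE1 did not. LDHA, which makes lactate from pyruvate, fell from 224.6 to 54.1 TPM (log2 change -2.03). PDK1, the kinase that keeps pyruvate out of mitochondria, fell from 4.09 to 0.69 TPM (log2 change -1.59), and the glucose transporter SLC2A1 (GLUT1) from 23.5 to 7.96 TPM (log2 change -1.45). The glycolytic enzyme PGK1 fell from 271.0 to 103.5 TPM (log2 change -1.38). The other 10 stayed within 2-fold, 5 of them lower and 5 higher in the GDF1 library. GAPDH, ALDOA and ENO1, glycolytic enzymes, had log2 changes of -0.68, -0.72 and -0.48, and ALDOC and PFKL of -0.36 and -0.06. TPI1 was listed at 1092 and 1265 TPM, the lactate exporter SLC16A3 at 97.6 and 113.0 TPM, and PFKFB3 and PFKFB4, regulators of glycolytic flux, at 5.09 and 6.67 TPM and at 5.06 and 7.62 TPM.

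Among 30 counted HIF-induced genes of other roles, 11 (36.7%) fell over 2-fold, against 9.61% of all genes. Among them were WSB1, P4HA1, HILPDA, AK4, TFRC, LOX, MXI1, BHLHE40, ERO1A and PLOD2. After rescaling 7 fell, beside 6.52% of all genes, and MXI1, BHLHE40, ERO1A and PLOD2 did not. After removal of the GC trend 6 fell, beside 6.07% of all genes, and LOX was also within 2-fold. HILPDA, a lipid droplet protein, fell from 103.6 to 27.5 TPM (log2 change -1.88). P4HA1, LOX and PLOD2, which modify collagen, fell from 20.9 to 4.82 TPM, from 7.32 to 2.36 TPM and from 2.61 to 0.70 TPM. EFNA1 had the highest change of the list, 0.92, at 8.33 and 16.7 TPM. The secreted factor ANGPTL4 (21.8 and 17.0 TPM), the histone demethylase KDM3A (6.89 and 4.56 TPM) and EPO (1.84 and 0.60 TPM, log2 change -0.83) stayed within 2-fold. EPO and CA12 did fall past 2-fold with 0.1 TPM added in place of 1 and with the plain TPM ratio.

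The changes varied with GC content across all genes, so the 9 counted hypoxia genes were set beside genes of like GC content. Counted protein-coding genes were ranked by GC content and split into 5 groups of like size. In the most GC-rich group, which holds CA9, 4.87% of 2359 genes fell over 2-fold. In the next group, which holds VEGFA, ADM and DDIT4, 8.27% fell, and in the middle group, which holds NDRG1, BNIP3 and EPAS1, 12.1% fell. ANKRD37 was in the group with the second lowest GC content, where 13.5% fell, and HIF1A in the lowest, where 14.0% fell. With the GC trend subtracted, CA9 stood at -2.96, VEGFA at -2.36, ADM at -1.76, NDRG1 at -1.73, ANKRD37 at -1.39 and BNIP3 at -1.10. The same 6 genes were thus past 2-fold, and HIF1A stood at 0.75.

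**Figure D3:**
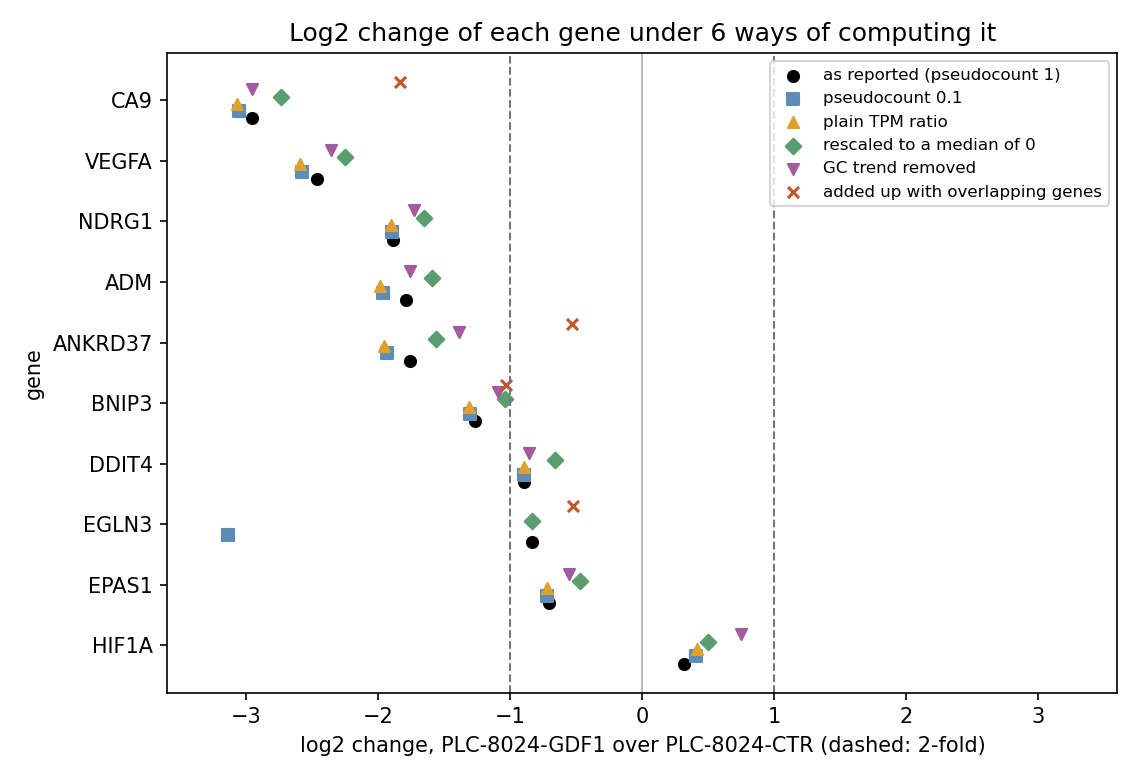
Log2 change of each of the 10 genes, GDF1 over control library, computed in 6 ways, each shown by its own symbol, with dashed lines at 2-fold. CA9, VEGFA, NDRG1, ADM and BNIP3 lie left of the line at -1 under each way shown for them, ANKRD37 lies right of it only when added up with UFSP2 (-0.54), and EGLN3 lies left of it only with a pseudocount of 0.1 (-3.14).

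The genes around the 6 that fell were also examined. Within 100 kb of them lay 19 other genes with at least 1 TPM, of which 0 fell over 2-fold, against 9.61% of all genes, and 4 rose, against 4.82%. Those that rose were CD72, MSMP and AL133410.1 near CA9 and UFSP2 near ANKRD37, named after their values were seen. With so few genes, no difference from all genes can be read from these counts. Of the 19, 12 lay near CA9, with a median log2 change of 0.27. NDRG1 had 0 such neighbours, so nothing can be read from its surroundings.

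Hypoxia-inducible factors bind the core letters ACGTG or GCGTG, and the promoters of the genes were searched for them. The RefSeq promoter table held 9 promoters for 8 of the 10 genes, 2 of them for HIF1A, and none was matched for VEGFA and NDRG1. In the 250 bases before the start site, 7 of the 9 promoters held at least 1 match on either strand, against 55.7% of 13767 promoters of expressed genes (1 TPM or more) and 43.2% of all 35116. With only 9 promoters, of genes chosen with earlier results known, no difference from these shares can be read. Matches on both strands were counted, so that a CACGTG counts as 2. BNIP3 had 6 matches, ANKRD37 and DDIT4 had 3 each, and CA9, ADM, EPAS1 and the first HIF1A promoter had 1 each. A match says only that the letters are present, and no binding was measured. The stretch with the match nearest the start site is shown for the genes that fell, to let them be read side by side, on the strand of each gene, 5′ to 3′, with the matches (or their complement) in capitals.
CA9, chr9:35673895-35673923, plus strand of GRCh37: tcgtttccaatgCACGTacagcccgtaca
ANKRD37, chr4:186317822-186317886, plus strand: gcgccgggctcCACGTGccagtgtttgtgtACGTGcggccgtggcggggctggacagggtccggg
BNIP3, chr10:133795497-133795561, minus strand: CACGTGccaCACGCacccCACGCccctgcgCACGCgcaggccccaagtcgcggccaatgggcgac
ADM, chr11:10326489-10326553, plus strand: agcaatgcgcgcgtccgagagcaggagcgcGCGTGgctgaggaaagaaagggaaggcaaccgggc

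In CA9 the match began 18 bases before the start site. The CA9 stretch is short because it overlaps 1 annotated exon, and it lies within the span of ARHGEF39. In ADM and BNIP3 the match began 101 and 104 bases before the start site, and in ANKRD37 143 bases. ADM held the GCGTG form only, CA9 and ANKRD37 the ACGTG form only, and BNIP3 both. EPAS1 and DDIT4, which did not fall over 2-fold, held matches as well, and EGLN3 held 0.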

How the data were processed

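PolyA-selected RNA of 1 PLC-8024-CTR and 1 PLC-8024-GDF1 library was sequenced on an Illumina HiSeq instrument. Per the labels and the methods, the authors filtered reads with Trimmomatic 0.36, aligned them to hg19 with HISAT2 2.1.0 and quantified genes with StringTie 1.3.3b, and they deposited TPM values. The methods name a RefSeq annotation, while the tables list Ensembl identifiers. TPM keeps no depth, so no counts, intervals or p-values were computed. A value of 0.0001 stands for 0.

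Both tables were joined by gene identifier. Log2 changes used a pseudocount of 1 TPM, and a gene was counted where it reached 1 TPM in either library. The fold rule was run on simulated data with large planted changes in genes of at least 5 TPM and little noise. That run checks the code only and does not cover low genes, GC content or variation between libraries. Positions, transcripts and GC content of the longest transcript came from GENCODE v44 on GRCh37, and promoters from RefSeq (GRCh38.p14), with printed stretches located in GRCh37 by exact match. The 10 genes and the other lists were chosen with earlier results of these data known. By a fixed rule, the 10 genes were named with both values, and genes of the other lists where they passed 2-fold or a sentence about a member needed them. The values of 1 listed gene are not reported here. Listed genes that are named without having passed 2-fold were in part chosen after their values were seen. No gene of like pattern was sought, because each gene has a single ratio.

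Alternatives were a pseudocount of 0.1 TPM, the plain ratio, other TPM minimums, rescaling to a median of 0 (a factor of 1.18), subtraction of a lowess GC trend (span 0.3), protein-coding genes alone and summing with overlapping genes. Python 3.11.15, numpy 2.4.6, pandas 2.3.3, statsmodels 0.14.6 and matplotlib 3.10.9 were used.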

Additional observations from a re-analysis of the deposited data

How the results depend on the processing

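No paired analysis was possible because there is a single library on each side, and none could be left out. The number of hypoxia genes that fell over 2-fold was 6, and the number that rose 0, with the pseudocount of 0.1, the plain ratio, the minimum of 5 TPM or none, rescaling, or the GC trend removed, and their median log2 change ran from -1.39 to -1.90. When overlapping expressed genes were added up, a count chosen after the data were seen, 5 fell and 0 rose, with a median of -1.03. Of 42 recomputed changes of single genes, 40 kept their direction and side of the 2-fold line, and ANKRD37 (-0.54 when added up with UFSP2) and EGLN3 (-3.14 with a pseudocount of 0.1) did not. None reversed. The counts over all genes, 1434 that fell and 720 that rose, varied more. They were 2315 and 1167 with a pseudocount of 0.1 and 2380 and 1167 with the plain ratio. After rescaling 1102 rose, and after removal of the GC trend 888 fell. With at least 5 TPM 471 rose, and among protein-coding genes 479 rose. The alternatives for the wider HIF-induced lists were chosen after the data were seen. Of their genes besides those of glucose use, 11 fell at first, and 13 with a pseudocount of 0.1 or the plain ratio. The number was 7 after rescaling and 6 without the GC trend. The cause of these shifts was not tested. TPM without depth limits genes near 1 TPM most, EGLN3 among them.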
